A study of Mus musculus with 12 samples.

Results

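The nuclear lamina genes examined here are the 6 genes Lmna, Lmnb1, Lmnb2, Lbr, Emd and Tmpo. They were chosen by name, with the earlier result in view that Lmna moved in opposite directions with FoxO deficiency in the 2 cell types measured. The platform annotation pairs 17 probe sets with these 6 genes, out of 18194 genes that it names by 1 symbol, and 14 of the 17 passed a filter on dim probe sets. Expression was measured on 12 Affymetrix mouse arrays, 3 for each of 4 groups: wild-type LSK cells (arrays 1 to 3), FoxO-deficient LSK cells (4 to 6), wild-type myeloid progenitors (7 to 9) and FoxO-deficient myeloid progenitors (10 to 12). LSK cells are bone marrow cells without lineage markers but with Sca-1 and Kit, a fraction that holds the hematopoietic stem cells, and myeloid progenitors are more restricted cells. All mice carried floxed alleles of FoxO1, FoxO3 and FoxO4; those of the deficient groups were also Mx-Cre+, and those of the wild-type groups were Mx-Cre-. Mx-Cre is driven by an interferon-responsive promoter that is not limited to blood cells, so a FoxO effect here includes any effect of the transgene. Cells came from pooled mice of unstated age. Whether the 3 arrays of a group hold RNA of separate pools is unstated too, so each p-value reflects the spread of these arrays alone, and that spread may be technical. In such bulk samples fewer cells of a type and less RNA per cell cannot be told apart.

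The nuclear lamina is a meshwork of lamin proteins under the inner nuclear membrane that gives the nucleus its stiffness and anchors silent chromatin. Lmna encodes lamins A and C, made from 1 gene by splicing, while Lmnb1 and Lmnb2 encode the B-type lamins. Lbr, Emd and Tmpo encode membrane or chromatin-bound partners of the lamins: the lamin B receptor, which is also a sterol reductase, emerin, and the thymopoietins or lamina-associated polypeptides of type 2. In blood cells lamin A and C amounts differ widely between lineages, and loss of the lamin B receptor gives neutrophils with poorly lobed nuclei. In GRCm38.p6 coordinates of the RefSeq gene table, Lmna lies at chr3:88481148-88509932, Lmnb2 at chr10:80901363-80918245, Lbr at chr1:181815315-181842401, Emd at chrX:74254674-74261563 and Tmpo at chr10:91147571-91181752.

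Lmna is the member whose level differed most between the groups, so the 250 bases before each of its start sites in the RefSeq promoter table (GRCm38.p6, minus strand) are shown, 5′ to 3′. The first lies at chr3:88503353-88503602 and the second at chr3:88493313-88493562. Both lie inside the Lmna interval given above, whose 5′ end on this strand is 88509932. The bases before that end were in none of the windows searched. Upstream and downstream below name the 2 start sites relative to each other.
Lmna upstream start site: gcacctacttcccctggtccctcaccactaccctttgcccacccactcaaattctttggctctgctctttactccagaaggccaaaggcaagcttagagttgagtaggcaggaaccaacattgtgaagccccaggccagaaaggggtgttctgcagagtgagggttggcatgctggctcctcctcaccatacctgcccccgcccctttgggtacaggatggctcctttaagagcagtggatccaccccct
Lmna downstream start site: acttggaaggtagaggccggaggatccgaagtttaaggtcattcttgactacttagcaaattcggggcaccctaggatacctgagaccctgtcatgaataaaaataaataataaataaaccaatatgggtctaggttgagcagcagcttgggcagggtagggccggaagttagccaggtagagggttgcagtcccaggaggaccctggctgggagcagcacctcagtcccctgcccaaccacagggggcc
All windows of 300 bases in that table (250 before to 50 after a start) were searched on both strands for the FoxO motif GTAAACA, whose reverse strand reads TGTTTAC, and for the AP-1 motif TGACTCA, whose reverse strand reads TGAGTCA. Of 32851 windows, 3.65% held the FoxO motif and 5.2% the AP-1 motif. The table held 8 windows for 5 of the 6 members. None of the 8 held the FoxO motif. One Lmna window held the AP-1 motif, 40 bases past the upstream start site at chr3:88503303-88503323, where the capitals mark it.
Lmna AP-1 match: tggctgtcagTGACTCAgtgt
A match of letters is a description of the window, and these arrays give no binding data for either factor.

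The series holds 1 array that stood apart. Wild-type LSK array 2 had a Gapdh 3′ over 5′ control ratio of 247, against 1.83 to 2.37 on the other 11 arrays, and an Actb ratio of 131 against 2.81 to 3.41. Across probe sets, its log2 values had r = 0.867 and 0.872 with wild-type LSK arrays 1 and 3, against 0.917 to 0.935 for other pairs within groups. LSK differences of the members that it moved by over 1.5 times are given with and without it, under the same normalization. Of the targeted genes, Foxo4 read 309 to 479 on the wild-type arrays and 59.1 to 100.2 on the deficient arrays of both cell types. A probe set of Foxo1 read 64.1 to 91.7 on wild-type and 26.9 to 36.4 on deficient LSK arrays, and 14.8 to 33.5 and 5.37 to 10.4 on those of myeloid progenitors. Foxo3 was not lower, at 1832 to 2715 on wild-type and 2263 to 3011 on deficient arrays; the deleted part of each gene is not given in these sources. Among markers of the sorted cells, 9 of 10 LSK genes were called lower in myeloid progenitors (16.0% of all genes were). Of the myeloid progenitor genes 9 of 10 were called higher there (17.1% of all genes). Kit, shared by both, did not pass (log2 difference -0.03), nor did Csf3r of the myeloid progenitor list, which averaged lower there (-0.17). All levels are normalized intensities, which hold an offset of 0.6, and the background limit of an array, the highest of its bacterial control probe sets, lay between 5.14 and 12.96.

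Lmna was high in FoxO-deficient LSK cells and low in FoxO-deficient myeloid progenitors, with both wild-type groups between them. Its brightest probe set, 1457670_s_at, read 443, 278 and 321 on wild-type LSK arrays 1 to 3 and 1089, 1064 and 1096 on the deficient LSK arrays. Wild-type and deficient myeloid progenitor arrays read 593, 429.7 and 442, and 192, 145 and 225, respectively. Deficient LSK arrays thus lay above every other array, deficient myeloid progenitor arrays lay below every other array, and the arrays of the wild-type groups overlapped. The log2 difference, deficient minus wild-type, was 1.67 ± 0.23 in LSK cells (SE of a limma fit of all 12 arrays, n = 3 a group; 3.18-fold higher) and -1.39 ± 0.23 in myeloid progenitors (2.62-fold lower). The difference between these effects was -3.06 ± 0.33. These contrasts chose the gene, so they are descriptions with no test. Without array 2 the LSK difference was 1.52.

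**Figure D1:**
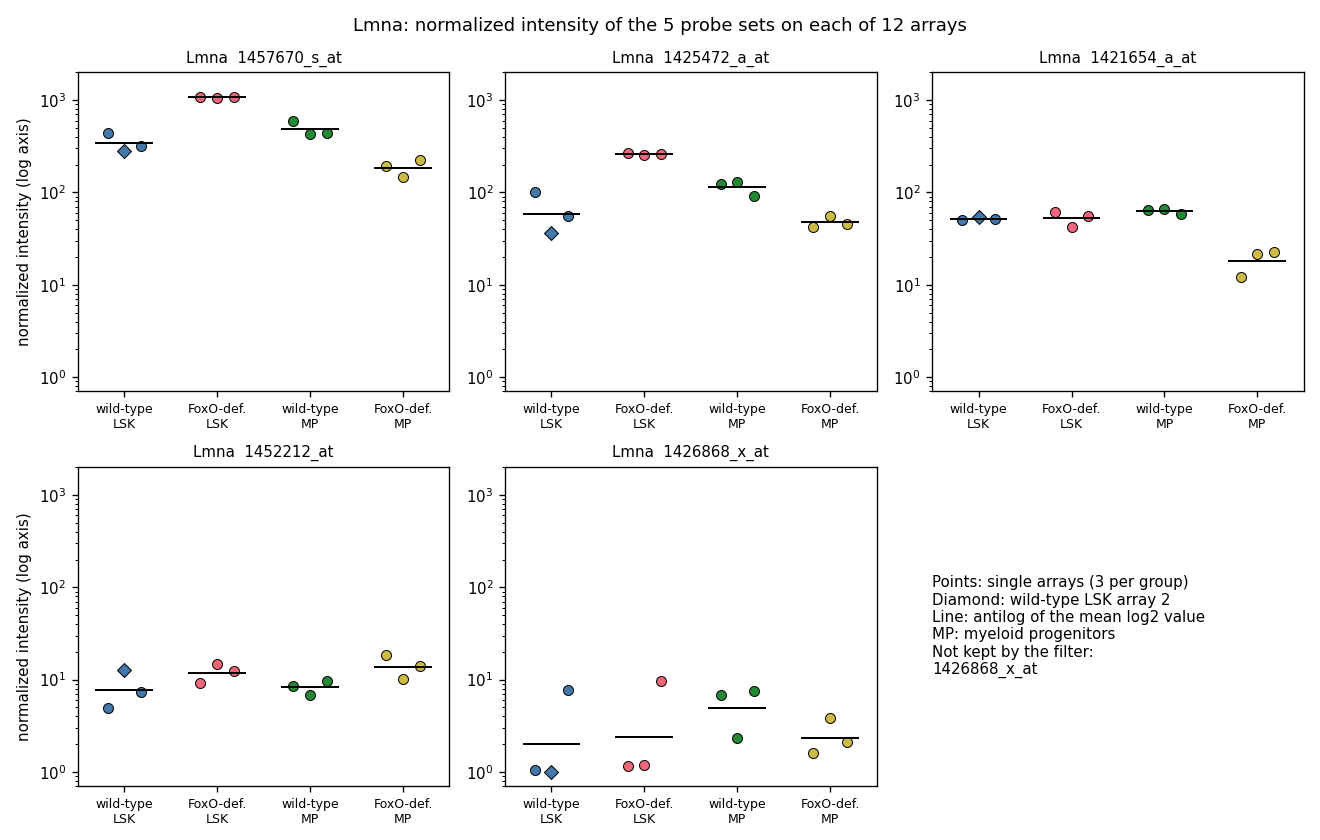
Normalized intensity (log axis) of the 5 Lmna probe sets on each of the 12 arrays, with a line at the antilog of each group's mean log2 value and a diamond for wild-type LSK array 2. On 1457670_s_at the deficient LSK arrays sit between 1064 and 1096 and the deficient myeloid progenitor arrays between 145 and 225, while 1421654_a_at shows no such rise in LSK cells.

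The order of the group levels on this probe set ran from deficient LSK cells (1083) over wild-type myeloid progenitors (483) and wild-type LSK cells (341) to deficient myeloid progenitors (184). The arrays of the neighbours in the middle overlapped, at 429.7 to 593 and 278 to 443, with log2 SDs of 0.26 and 0.34 and a difference of 0.50 ± 0.23. On the probe set 1421654_a_at, described further on, the same neighbours did not overlap (58.4 to 66.3 and 50.9 to 54.4). The 3 deficient LSK arrays were the tightest group, with a log2 SD of 0.02, and the deficient myeloid progenitors had one of 0.32.

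The next brightest Lmna probe set, 1425472_a_at, showed the same pattern. It read 100.3, 36.5 and 55.9 on wild-type LSK arrays, 268, 252 and 262 on deficient LSK arrays, 124, 128 and 91.8 on wild-type myeloid progenitor arrays and 41.8, 55.3 and 45.9 on deficient myeloid progenitor arrays. Again the deficient groups overlapped with neither wild-type group of their cell type. Its log2 differences were 2.14 ± 0.33 in LSK cells, or 1.80 without array 2, and -1.26 ± 0.33 in myeloid progenitors. Over the 12 arrays it followed the brightest probe set at r = 0.93, or 0.96 without array 2.

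A further Lmna probe set, 1421654_a_at, was low in deficient myeloid progenitors but not high in deficient LSK cells. It read 50.9, 54.4 and 51.2 on wild-type and 61.5, 42.7 and 56.3 on deficient LSK arrays, which overlap. In myeloid progenitors it read 63.9, 66.3 and 58.4 on wild-type and 12.1, 21.7 and 22.6 on deficient arrays, which do not. The log2 difference was 0.02 ± 0.26 in LSK cells, or 0.05 without array 2 (-1.65 relative to the effect on the brightest probe set) and -1.79 ± 0.26 in myeloid progenitors, or -0.91 with an offset of 32 in place of 0.6. Its ratio to the brightest probe set within an array was 0.115 to 0.195 in wild-type LSK cells and 0.0401 to 0.0565 in deficient LSK cells, without overlap, against 0.108 to 0.154 and 0.0632 to 0.149 in the myeloid progenitor groups. The probe sets of Lmna thus differed unequally between the LSK groups; which transcripts each one reads was not analysed here.

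The last kept Lmna probe set, 1452212_at, lay near background, above its array's limit on 9 of 12 arrays, with group means of 7.73, 11.9, 8.24 and 13.7 in the order of the arrays. Its log2 differences were 0.62 ± 0.36 in LSK cells, or 0.97 without array 2, and 0.74 ± 0.36 in myeloid progenitors, so it did not have the myeloid progenitor direction of the others. The probe set 1426868_x_at did not pass the filter and was above the limit on 2 of 12 arrays.

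**Figure D2:**
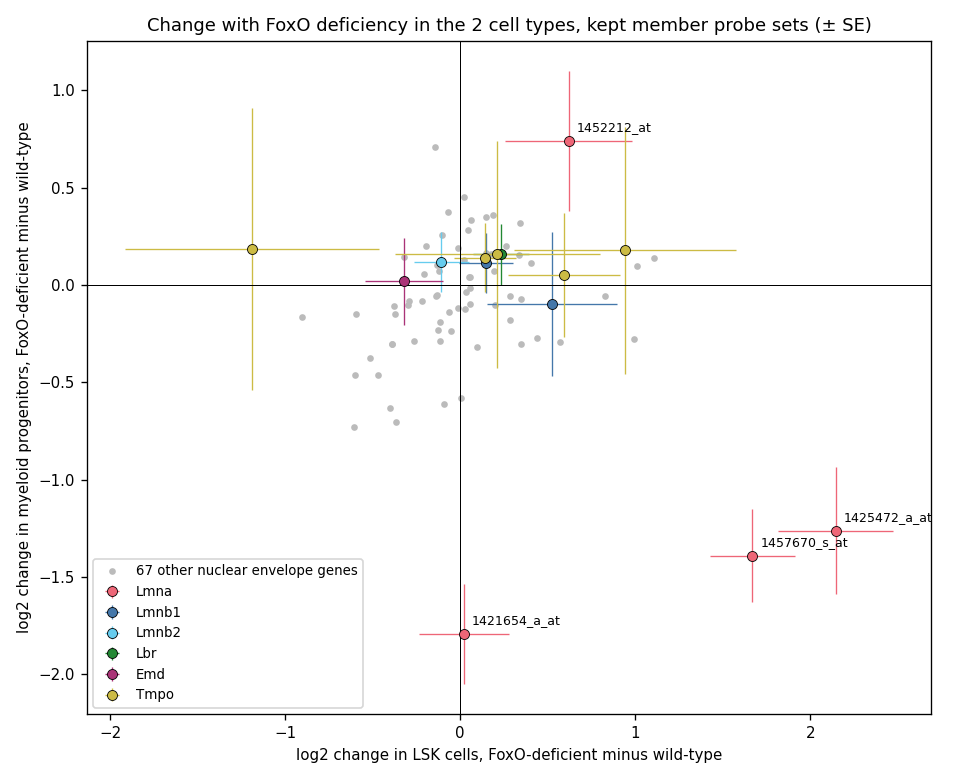
Log2 change with FoxO deficiency in LSK cells (x axis) and in myeloid progenitors (y axis) for the 14 kept probe sets of the 6 members, with bars of 1 SE, and grey points for 67 other nuclear envelope genes. Lmna 1457670_s_at (1.67 and -1.39) and 1425472_a_at (2.14 and -1.26) lie at the lower right, apart from the probe sets of the other members.

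Across the members, 4 of 14 kept probe sets had all 3 deficient LSK arrays above all 3 wild-type ones (8.63% of all kept probe sets did) and 1 had them below (7.57%). In myeloid progenitors 3 lay above without overlap (15.0%) and 3, all of Lmna, below (13.3%). The opposite pattern, above in LSK cells and below in myeloid progenitors, held for 2 of 14, both of Lmna, and for 1.29% of all kept probe sets. Since these contrasts chose the members, the counts are given with no reading.

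The B-type lamin genes had smaller FoxO differences than Lmna. Lmnb1, on probe set 1423521_at, read 2356, 2189 and 2724 on wild-type and 2655, 2697 and 2664 on deficient LSK arrays, which overlap. The wild-type myeloid progenitor arrays read 2697, 2666 and 2664, and the deficient ones, all higher, 2923, 2917 and 2845. The log2 differences were 0.15 ± 0.13, or 0.08 without array 2, and 0.11 ± 0.13. Its dimmer probe set 1423520_at read 56.5 on array 2 and 120.1 to 170.2 on the other 11 arrays, and its LSK difference of 0.53 fell to 0.02 without array 2.

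Lmnb2, on probe set 1448531_at, was slightly brighter in myeloid progenitors of both genotypes. It read 650.4, 523 and 639 on wild-type LSK arrays and 555, 551 and 568 on deficient LSK arrays. The overlap of these groups came from array 2, and the other wild-type LSK arrays lay above all deficient ones. In myeloid progenitors it read 709.6, 734 and 700.5 on wild-type and 804, 752 and 773 on deficient arrays. The FoxO differences were -0.11 ± 0.14 in LSK cells, or -0.21 without array 2, and 0.12 ± 0.14 in myeloid progenitors. Its other probe set, 1451849_a_at, was above background on 0 of 12 arrays and did not pass the filter.

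The lamin partners showed small differences. Lbr, the lamin B receptor gene, read 1501, 1269 and 1380.2 on wild-type and 1609, 1598 and 1658 on deficient LSK arrays, which do not overlap (log2 difference 0.23 ± 0.14). In myeloid progenitors it read 1508, 1562 and 1768 on wild-type and 1662, 1929 and 1799 on deficient arrays, which overlap (0.16 ± 0.14). Emd, the emerin gene, read 841, 869 and 883 on wild-type and 646, 821 and 624 on deficient LSK arrays, all of which lay lower (-0.32 ± 0.21). On myeloid progenitor arrays Emd read 482, 678 and 641 on wild-type and 464, 686 and 686 on deficient arrays, which overlap (0.02 ± 0.21).

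Tmpo rested on array 2 in LSK cells. Its brightest probe set, 1428976_at, read 1106, 419 and 1003 on wild-type and 1134, 1119 and 1261 on deficient LSK arrays. On myeloid progenitor arrays Tmpo read 1189, 1185 and 1282 on wild-type and 1226, 1262 and 1305 on deficient arrays. The LSK difference was 0.59 ± 0.31 with array 2 and 0.15 without it, and the myeloid progenitor difference was 0.05 ± 0.31. On 1426349_s_at array 2 read 109 and the other 11 arrays 545 to 895, whereas on 1452036_a_at it read 766 and the others 943 to 1235. The LSK difference went from 0.94 to -0.02 without array 2 on the first of these, from 0.14 to 0.01 on the other and from 0.21 to -0.54 on 1433026_at. The probe sets 1433026_at and 1426020_at were above background on 10 and 3 of 12 arrays, and 1421237_at, on 0 arrays, did not pass the filter.

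**Figure D3:**
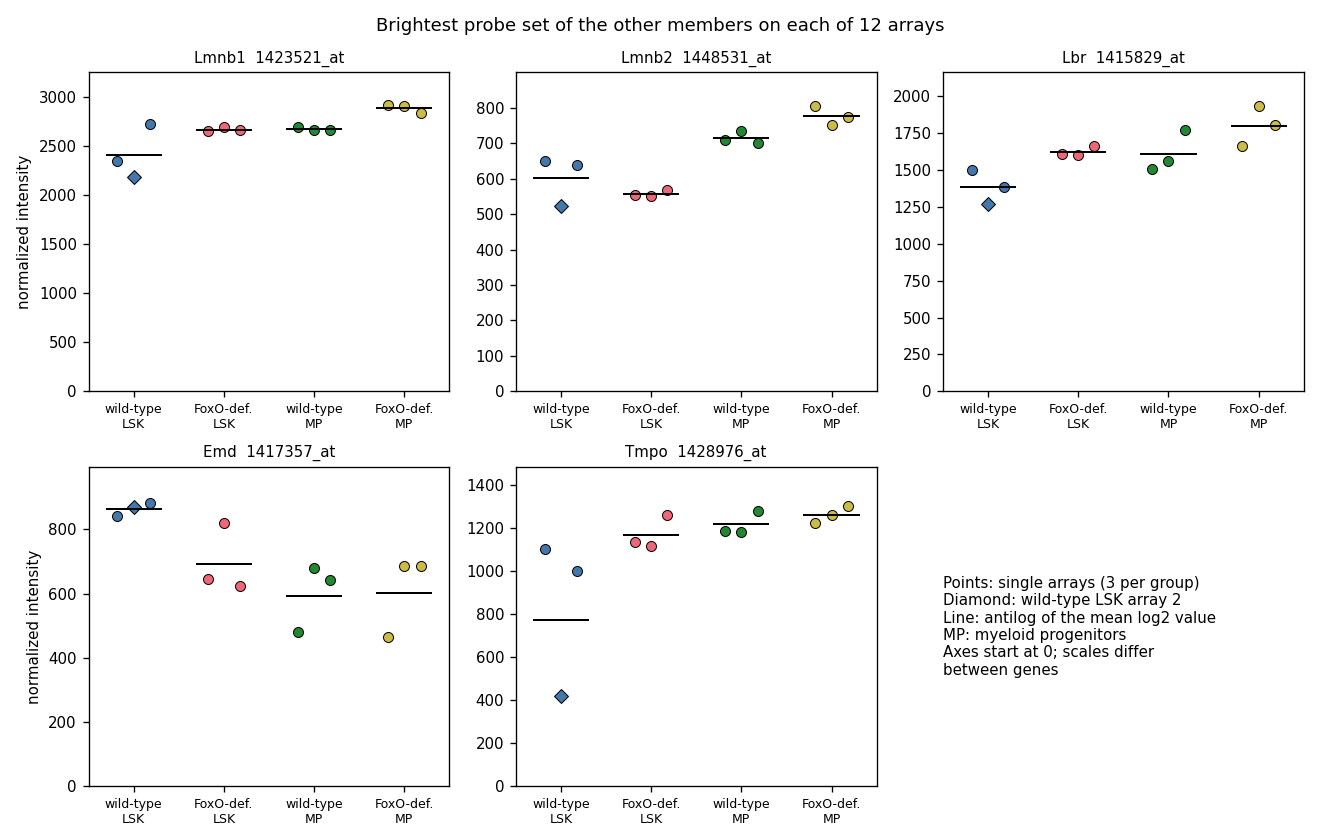
Normalized intensity (axes from 0, with a scale of its own for each gene) of the brightest probe set of Lmnb1, Lmnb2, Lbr, Emd and Tmpo on each of the 12 arrays, with a line at the antilog of each group's mean log2 value. Lmnb2 lies between 523 and 650.4 on LSK arrays and between 700.5 and 804 on myeloid progenitor arrays, and the diamond of wild-type LSK array 2 lies at 419 for Tmpo.

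**Figure D4:**
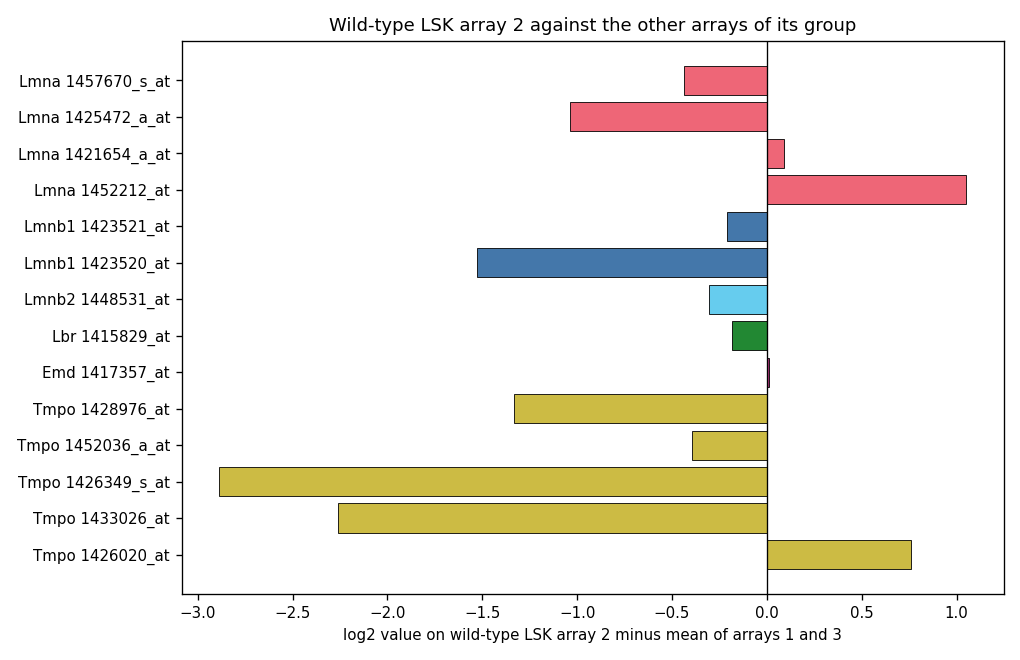
Log2 value of each kept member probe set on wild-type LSK array 2 minus the mean of arrays 1 and 3. The bars run from -2.89 (Tmpo 1426349_s_at) to 1.05 (Lmna 1452212_at), and 5 of 14 lie below -1.

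Of all kept probe sets, 22.2% read more than 1 log2 unit lower and 21.3% more than 1 higher on array 2 than on the other arrays of its group; among the members 5 of 14 read that much lower.

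The members were also compared between the cell types, with both genotypes averaged. Lmna was chosen for its pattern over the same 4 groups, so its values here are a description with no test. Of the 5 other genes, 1 was called (limma, Benjamini-Hochberg adjusted p under 0.05), against 33.1% of all 13732 genes, of which 17.1% were higher and 16.0% lower in myeloid progenitors. Lmna had a log2 difference of -1.03 ± 0.16 (2.04-fold lower in myeloid progenitors), with means over both genotypes of 607 in LSK cells and 298 in myeloid progenitors. The negative sign came from the deficient groups: wild-type myeloid progenitors overlapped wild-type LSK cells and averaged higher (0.50 ± 0.23), and deficient myeloid progenitors lay below deficient LSK cells by 2.56 log2 units (-2.56 ± 0.23). Lmnb2 was higher in myeloid progenitors (0.36 ± 0.10, adjusted p = 0.0166), with all myeloid progenitor arrays above all LSK arrays of either genotype, and differences of 0.25 ± 0.14 in wild-type and 0.48 ± 0.14 in deficient cells.

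The other 4 members did not pass. Emd had a difference of -0.37 (95% interval -0.70 to -0.04, adjusted p = 0.0855), Tmpo 0.38 (-0.11 to 0.88, adjusted p = 0.220), Lbr 0.18 (-0.04 to 0.41, adjusted p = 0.192) and Lmnb1 0.13 (-0.08 to 0.34, adjusted p = 0.322). When each array was scaled to a common median instead, Lmnb1, Lbr and Tmpo were called, under a scaling that moved the median of all genes by 0.18.

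Between the cell types within a genotype, 4 of 14 kept probe sets were higher without overlap in wild-type myeloid progenitors (16.7% of all kept probe sets) and 1 was lower (14.4%), against 4 (25.6%) and 4 (21.3%) in deficient cells, 3 of the last 4 of Lmna.

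By probe set, 1 of the 10 of members other than Lmna was called for the cell type difference, Lmnb2 1448531_at (adjusted p = 0.0354), against 26.2% of all 31779 kept probe sets. In this fit the Lmnb2 call was lost without any 1 of arrays 4 to 12 (adjusted p = 0.0637 to 0.0788), with no filter on dim probe sets (0.107) and with cyclic loess (0.0670). The further Lmna probe sets, as a description, had differences of -0.76 ± 0.23 (1425472_a_at), -0.64 ± 0.18 (1421654_a_at) and 0.15 ± 0.25 (1452212_at, near background). Tmpo 1426349_s_at changed sign with array 2, from 0.14 (adjusted p = 0.851) to -0.33 without it (adjusted p = 0.0186, the lowest of a range up to 0.905 over its alternatives).

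**Figure D5:**
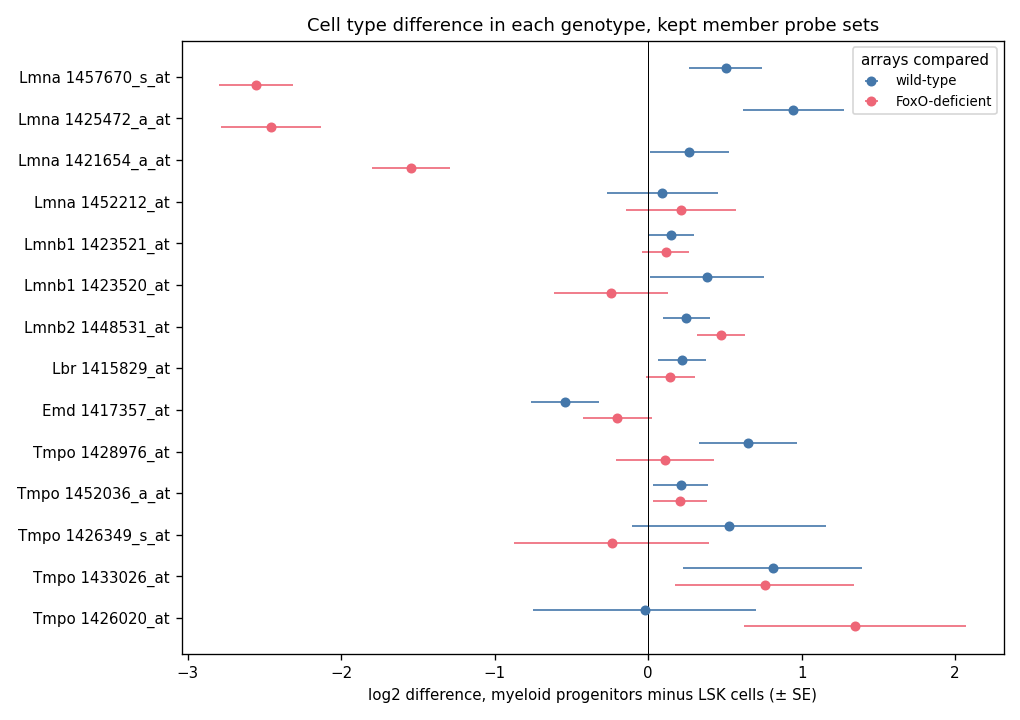
Log2 difference, myeloid progenitors minus LSK cells, in wild-type (blue) and FoxO-deficient (red) arrays for the 14 kept member probe sets, with bars of 1 SE. On Lmna 1457670_s_at the difference is 0.50 in wild-type and -2.56 in deficient arrays, and on Lmnb2 1448531_at it is 0.25 and 0.48.

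Other nuclear envelope genes were read from a list of 70, of which 67 were tested. For the cell type difference 27 of 67 (40.3%, against 33.1% of all genes) were called, 24 higher and 3 lower in myeloid progenitors, and the median log2 difference was 0.26 against 0.06 over all genes. Nuclear pore genes, whose products form the channel through the envelope, had 17 of 28 called higher (17.1% of all genes were) and 0 called lower (16.0%). An unadjusted p under 0.05 in the limma fit was seen for 18 of them and for 42.5% of all genes. Their median was 0.42. With cyclic loess 14 were called higher (2082 of all genes were) and with median scaling 22 (3596 of all genes), against 2342 of all genes in the fit as reported. The largest were Nup43 (1.49 ± 0.16), Nup107 (1.15 ± 0.14), Sec13 (1.05 ± 0.14), Rae1 (1.02 ± 0.24) and Nup93 (1.02 ± 0.14). Beside them, 8 of 11 tested genes of G2 and M phase and 4 of 10 of S phase were called higher in myeloid progenitors, and the part of cell division in the pore counts was not tested.

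Of the inner membrane and LEM genes, relatives and partners of emerin, 3 of 12 were called higher (17.1% of all genes were) and 2 lower (16.0%). Banf1, which bridges LEM proteins to DNA, was higher (0.87 ± 0.20), as were Nemp1 (0.49 ± 0.16) and the AAA ATPase gene Tor1a (0.38 ± 0.12). Lemd3, an inner membrane LEM protein gene, was lower (-0.61 ± 0.12), as was Tor1aip1, which encodes a lamin-binding activator of torsin (-0.52 ± 0.14). In the LINC complex, which joins the lamina to the cytoskeleton, 1 of 6 was called: Syne2 was lower, with means of 24.5 (wild-type) and 18.6 (deficient) in LSK cells against 4.44 and 2.86 in the progenitor groups, above background on 6 of 12 arrays, so no fold is given. Of 5 genes that process prelamin A and other farnesylated proteins, Zmpste24, the prelamin A protease gene, was higher (0.34 ± 0.10). Of 7 chromatin partners, Narf, a prelamin A binding protein gene (1.09 ± 0.16), and Rb1 (0.77 ± 0.15) were higher. Of 2 sterol reductase genes beside Lbr, Tm7sf2 was higher (1.19 ± 0.29), and of 7 envelope sealing genes 0 were called, with 0 at an unadjusted p under 0.05. The adjusted p of the called genes named here and of the named pore genes lay between 7.91e-05 and 0.0419 in the limma fit.

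With FoxO deficiency 0 of the 67 genes were called in LSK cells (0.269% of all genes were), 0 in myeloid progenitors (1.84%) and 0 for the difference of the effects (0.859%). At an unadjusted p under 0.05 there were 5, 5 and 4 of them in the limma fit, against 11.5%, 12.9% and 10.6% of all genes. In myeloid progenitors other settings called up to 3, and without array 2 Ahctf1, a pore assembly gene, was called lower (-0.61, adjusted p = 0.0171, against 0.197 with it). Of all genes, 1230 were called with array weights, the setting that gave the 3, and 1194 without array 2, against 253 in the fit as reported. The log2 differences ran from -0.90 (Chmp4b) to 1.11 (Syne3) in LSK cells and from -0.73 (Narf) to 0.71 (Nemp1) in myeloid progenitors, and none passed.

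Other genes also differed in the contrasts that separated Lmna. Of 10 tested LSK markers 1, Tek, was called, lower with FoxO deficiency in LSK cells (-1.29 ± 0.17) and in myeloid progenitors (-1.11 ± 0.17). By direction 4 of the 10 were positive in LSK cells and 8 in myeloid progenitors. Of 10 myeloid progenitor markers 0 were called in LSK cells (5 positive) and 1, Gfi1, higher in myeloid progenitors (6 positive). Of all genes 0.146% were called lower in LSK cells, and 1.09% lower and 0.757% higher in myeloid progenitors. Of 11 immediate-early genes, which cells switch on within minutes of a stimulus, 10 were called lower in deficient than wild-type myeloid progenitors (1.09% of all genes were) and 0 in LSK cells, where 1 had an unadjusted p under 0.05. The difference of the effects was called lower for 9 (0.568% of all genes). Without array 2 all 11 were called lower in both of these comparisons. Over all genes, leaving out array 2 took the calls from 17 to 75 higher and from 20 to 58 lower in LSK cells. In myeloid progenitors they went from 104 to 720 higher and from 149 to 474 lower. For the difference of the effects they went from 40 to 238 higher and from 78 to 234 lower. The summed intensity of that list was 691 to 788 on deficient and 11873 to 12759 on wild-type myeloid progenitor arrays, and 18000.3 to 18624 on wild-type and 19466 to 20088 on deficient LSK arrays. Of 8 tested markers of stroma and endothelium, cells rich in lamin A, 0 were called with FoxO deficiency in either cell type, with an unadjusted p under 0.05 for 3 in LSK cells and 1 in myeloid progenitors. Their summed intensity over 10 genes was 158 to 295 on wild-type and 165 to 206 on deficient LSK arrays, and 68.2 to 94.6 on wild-type and 95.2 to 130.1 on deficient myeloid progenitor arrays, with Lepr above background on no array. The log2 differences ran from -2.05 (Col1a2) to 1.28 (Sparc) in LSK cells and from -0.23 (Kdr) to 1.68 (Sparc) in myeloid progenitors. Without array 2, 1 of 7 tested was called higher in myeloid progenitors and 0 in LSK cells, where 720 and 75 of all genes were. Among late neutrophil markers 1 of 8, Camp, was called higher in both cell types (0.124% of all genes were in LSK cells and 0.757% in myeloid progenitors). Without array 2 it was 2 and 4 of 8, with 75 and 720 of all genes called higher, against 17 and 104 with it. Their summed intensity was 5988 to 8211 on wild-type and 8524 to 8766 on deficient LSK arrays, and 4460 to 4602 on wild-type and 6278 to 6587 on deficient myeloid progenitor arrays, without overlap in either cell type. By gene, 6 of the 8 log2 differences were positive in each cell type (medians 0.19 in LSK cells and 0.45 in myeloid progenitors). Mmp9 was the lowest in both (-1.42 and -0.42). The summed intensity of 5 megakaryocyte markers, genes of platelet precursors, was 191 to 337 on wild-type and 353 to 388 on deficient LSK arrays, and 390 to 431 on wild-type and 266 to 330 on deficient myeloid progenitor arrays. That sum thus lay higher in deficient LSK cells and lower in deficient myeloid progenitors, without overlap. By gene, however, only 2 of the 5 log2 differences were positive in LSK cells (median -0.24). They ran there from -0.49 (Gp9) to 1.25 (Pf4), so most of the list did not rise with the sum. In myeloid progenitors 0 of the 5 were positive (median -0.43). None of the 5 was called (limma, with an unadjusted p under 0.05 for 2 in LSK cells and 0 in myeloid progenitors), but without array 2 Pf4, the platelet factor 4 gene, was called higher in LSK cells (1.64 ± 0.13, adjusted p = 0.00117, against 1.25 and 0.137 with it) and lower in myeloid progenitors (-0.56 ± 0.11, adjusted p = 0.0203, against 0.464 with it). Among monocyte markers 1 of 6, Ccr2, was called lower in LSK cells (0.146%). Of the 6 log2 differences there, however, 5 were positive (median 0.34, from -2.65 for Ccr2 to 1.95 for Vcam1). Myeloid progenitor arrays gave 3 of 6 positive and 0 called. The difference of the effects was positive for 3 of 6, from -1.79 (Vcam1) to 2.06 (Ccr2), with Ccr2 called. Without array 2, 1 was called higher and 1 lower for LSK cells, with the same counts for the difference. For the progenitors 1 was then called lower. The part of these cells or genes in the Lmna values was not tested.

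The genes whose log2 values followed each member most closely over the 12 arrays were taken from the other 13731 tested genes, as a description; arrays share their group and their preparation. For Lmna they were Lin54, a subunit of a cell cycle gene repressor complex (Pearson r = 0.94), the AP-1 gene Junb (0.93), Mxd1, a MAX partner that opposes Myc (0.92), the activation antigen gene Cd69 (0.91) and Gm38604 (0.91). Cd69 read 952, 1634, 1077 and 469 in the order of the groups, and Junb 23.3, 47.7, 24.9 and 8.26, so both were highest in deficient LSK cells and lowest in deficient myeloid progenitors. The last Junb mean lay below the background limits of the arrays of its group (8.74 to 10.1). Without array 2 these 5 values of r lay between 0.92 and 0.96. For Lmnb2 the closest were Cdc123, Mrps25 and Angptl4 (each 0.97), for Lmnb1 B4galnt2, Sft2d3 and Sec24d (0.97, 0.97 and 0.96), for Lbr D830012I24Rik, 9330151L19Rik and Rassf8 (0.92, 0.92 and 0.90) and for Emd P2rx1, Trim62 and Prr36 (0.93, 0.89 and 0.88). For Tmpo they were Emc1, Pqbp1 and Nfu1 (each 0.99), and without array 2 these fell to 0.90, 0.84 and 0.86.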

How the data were processed

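The authors deposited linear intensity values, 1 for each of 45101 probe sets on each of 12 arrays; per the labels' protocols, amplified cDNA was biotin-labelled (NuGEN Ovation) in triplicate. The software that summarised probes is not given in these sources. The array medians of the deposited intensity values ran from 8 to 13.5 and the means from 119 to 190.2. An offset of 0.6, the 10th percentile over the whole table, was added before log2, followed by quantile normalization. All fold changes carry this offset, which understates changes of dim genes. The 64 control probe sets stayed out, and 31779 probe sets were kept, those brighter than the 40th percentile of the array on 3 or more arrays. Genes were named by the platform annotation from probe sets with 1 symbol; 34945 had 1, 932 several and 9160 none. Each gene was read on its brightest kept probe set, giving 13732 genes. limma 3.58.1 in R 4.3.3 fitted 1 mean per group to all 12 arrays (lmFit and eBayes, 8 residual degrees of freedom), two-sided, with Benjamini-Hochberg adjustment over all genes or all kept probe sets, and a call is an adjusted p under 0.05. Errors of a gene are from the fit of genes, those of a further probe set from the fit of all kept probe sets. The fit was tested on simulated data.

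The members and all lists were chosen with earlier results of these data known. All member probe sets are named; of each other list the called genes are named, up to 5 in each direction by size, and for each member the 3 genes (5 for Lmna) with the highest Pearson correlation. List genes not named by a probe set of 1 symbol, among them Nup35 and Tpr, were not tested. Precision is limited by the 3 arrays of a group. Alternatives were other offsets (8 and 32), scalings, filters, probe set rules, array weights, fits of only the groups compared and leaving out each array. Sequences come from the RefSeq promoter table; Lmnb1 is not shown.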

Additional observations from a re-analysis of the deposited data

Results flagged for a closer look

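On Lmna 1457670_s_at the FoxO effect in myeloid progenitors minus that in LSK cells was -3.06 on the log2 scale, and on Lmna 1425472_a_at it was -3.41. All 3 deficient arrays lay above the wild-type arrays in LSK cells and below them in myeloid progenitors. The difference was not tested, since it chose the gene.

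Among the marker lists, the difference of the FoxO effects was called for Gfi1, a transcription factor gene of granulocyte progenitors (limma, log2 difference 1.73 ± 0.23, adjusted p = 0.00845), whose mean level went from 132 to 71.5 in LSK cells and from 248 to 444 in the progenitors. It was also called for the chemokine receptor gene Ccr2 (2.06 ± 0.29, adjusted p = 0.0108), whose mean level went from 67.4 to 10.7 in LSK cells and from 314 to 209 in the progenitors. In the immediate-early list it was called for 9 of 11 genes, all lower. Without wild-type LSK array 2, which stood apart, the differences were 1.87 ± 0.15 for Gfi1 (adjusted p = 0.000319) and 1.89 ± 0.22 for Ccr2 (adjusted p = 0.00354), and all 11 immediate-early genes were called lower. Of all genes, 234 were then called lower for the difference, against 78 with that array. No test for outlying values within groups was run on 3 arrays.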

How the results depend on the processing

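The call of Lmnb2 (higher) for the cell type difference held under every alternative run by gene (adjusted p up to 0.0447), and the Lmna FoxO differences on the brightest probe set kept their sign in both cell types. With the mean of all kept Lmna probe sets, 1452212_at near background included, they were smaller. They were 1.11 in LSK cells (against 1.67) and -0.93 in myeloid progenitors (against -1.39). The difference of the effects was then -2.04 (against -3.06). Other FoxO values changed sign 16 times in all: the LSK difference of Lmna 1421654_a_at (down to -0.089) and Lmnb1 (-0.0054), the myeloid progenitor difference of Emd (down to -0.13), and the difference of the effects for Lmnb1, Tmpo and Lmna 1452212_at. Of 383 recomputed cell type values of the members, Lmna included, 338 kept their direction and their side of the threshold, 28 lost the call, 10 gained it and 7 changed sign. This tally counts a gene's brightest probe set both by gene and by probe set. The lost calls were of Lmna 1425472_a_at (9 with an array left out, 2 under other settings), Lmna 1421654_a_at (4 and 2) and Lmnb2 1448531_at (9 and 2). For Lmna these counts describe the processing and are no test. The sign changes were Lmnb1 at -0.012 by gene and on 1423521_at with cyclic loess, Lmnb1 1423520_at at -0.15 with array weights and -0.18 without wild-type LSK array 2, Tmpo 1426349_s_at at -0.28 and -0.33 under the same settings, and Lmna 1452212_at at -0.0070 without wild-type LSK array 1. Over all arrays left out in turn, Lmna 1452212_at lay between -0.0070 and 0.33, Lmnb1 1423520_at between -0.18 and 0.20 and Tmpo 1426349_s_at between -0.33 and 0.40. Median scaling called Lmnb1 (0.41), Lbr (0.50) and Tmpo (0.76), and an offset of 32 called Emd (-0.35, adjusted p = 0.0410, which ran up to 0.872 over its alternatives). With median scaling 67.57% of all cell type calls were higher in myeloid progenitors, against 51.55% in the fit as reported.

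Counts over all genes moved more. For FoxO deficiency in LSK cells the 37 calls became 81 and 174 with offsets of 8 and 32, 22 with median scaling, 16 with no filter, 93 with a 60th percentile filter and 148 with array weights. A limma fit of the LSK arrays alone gave 0, with 892 at an unadjusted p under 0.05. In myeloid progenitors the 253 became 507 (offset 32), 407 (60th percentile filter), 1230 (array weights) and 644 (the groups compared alone). The 118 for the difference became 217, 72, 75, 185 and 440 with offset 32, median scaling, no filter, the 60th percentile filter and array weights. Of the 67 nuclear envelope genes, those called in myeloid progenitors were 1 with offset 32, 3 with array weights and 2 with the groups compared alone. Leaving out each array in turn gave 9 to 133 calls in LSK cells, 132 to 1194 in myeloid progenitors, 56 to 472 for the difference and 3873 to 6458 for the cell type, or 6781 to 12171 by probe set, the highest of each without wild-type LSK array 2. It gave 21 to 37 nuclear envelope genes for the cell type and 0 to 1 for FoxO deficiency in myeloid progenitors. The cause of these shifts was not tested. No paired analysis was possible because the array numbers in the titles run from 1 to 12 and none is shared between groups. Probe sets near background limit what dim transcripts show.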
